A study of Zea mays with 318 samples.

Results

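The genes described here are the 200 most variable genes among those expressed in every inbred line of a maize panel, in kernels at 5 days after pollination (5 DAP). They were chosen by their spread. A gene had to hold at least 1 uniquely mapped read in each of 318 lines and a median above 1 FPKM (fragments scaled by the exon length of the gene and by the size of the library), and to lie outside the 100 genes with the highest mean FPKM. Of 39625 genes in the tables, 17562 had a read in every line, 17152 of these had a median above 1 FPKM, and 17055 remained after the highest genes were left out. The 200 of these with the largest SD of log2(FPKM + 1) across lines are called members, and the remaining 16855 are called the other eligible genes. The SD therefore chose the members and is given below as a description, with no test. No microRNA of the tables was among them.

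Each line was represented by 1 RNA-seq library of whole kernels, made from seeds of 3 field blocks that were mixed before RNA extraction, so that no line has a replicate library. The labels give the line's name, the tissue and the stage, and no treatment. By the series in their names, 98 lines are CIMBL lines, 40 are CML lines, 46 are GEMS lines and the remaining ones carry other names (called other lines). The labels do not say how lines of a series are related, and an SD or range over lines is a spread between inbred lines, not an error of repeated measurement. Total counts ranged from 6100624 to 29629212 per line, with a median of 13625468, and the medians of the 4 series lay between 13423204 and 14169020. Every library was counted as a separate line by its name. The 2 closest libraries were those of the lines 177 and ZHENG58, with a median squared standardised difference of 0.99 (0.455 for counting noise alone). CIMBL47 and CML298, of 2 name series, followed at 1.68, and the third closest pair lay at 3.5. Libraries of 1 genotype grown apart can also differ by more than counting noise, so these values do not show that such lines are distinct. The correlation of a line with the mean profile over the 1000 highest genes, here called its likeness, was under 0.6 in 12 lines.

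A maize kernel at this stage is an early endosperm and embryo surrounded by the much larger maternal nucellus and pericarp, and whole kernels mix all of them. In bulk tissue, fewer cells of a type and less RNA per cell cannot be told apart. ZAG2, an AGAMOUS-like MADS-box gene of the ovule and carpel, was present in every line (81.4 to 498 FPKM, median 196), whereas betl1, a gene of the later basal transfer layer, was listed at 0 in 297 lines and o2, a regulator of endosperm storage proteins, was also at 0 in 297. Of 17 marker genes of kernel and leaf tissues, 9 had a median of 0 and none was a member.

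The members differed strongly between lines. Their SD on the log2 scale lay between 1.48 and 3.67 (median 1.64), against a median of 0.47 for the other eligible genes. Between the 5th and the 95th percentile of lines, the FPKM of a member differed by a median of 62.2-fold, and by 22.1-fold to 1865-fold over the 200. The members were also more abundant, with a median of their median FPKM of 36.6, against 11.1 for the other eligible genes. The rule bounded the low end in reads only: 141 members fell under 10 reads in at least 1 line, 52 had a lowest count of 1, and 167 were under 1 FPKM in at least 1 line. Typical lines were well covered all the same, since no member had a median under 50 reads and 195 had one of at least 100. Just inside the threshold lay GRMZM2G160840, GRMZM2G057506 and GRMZM2G019974 (SD 1.49, 1.49 and 1.48), and just outside it lay GRMZM2G043191, AC214507.3_FG001 and GRMZM5G893444 (1.48 each).

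**Figure D1:**
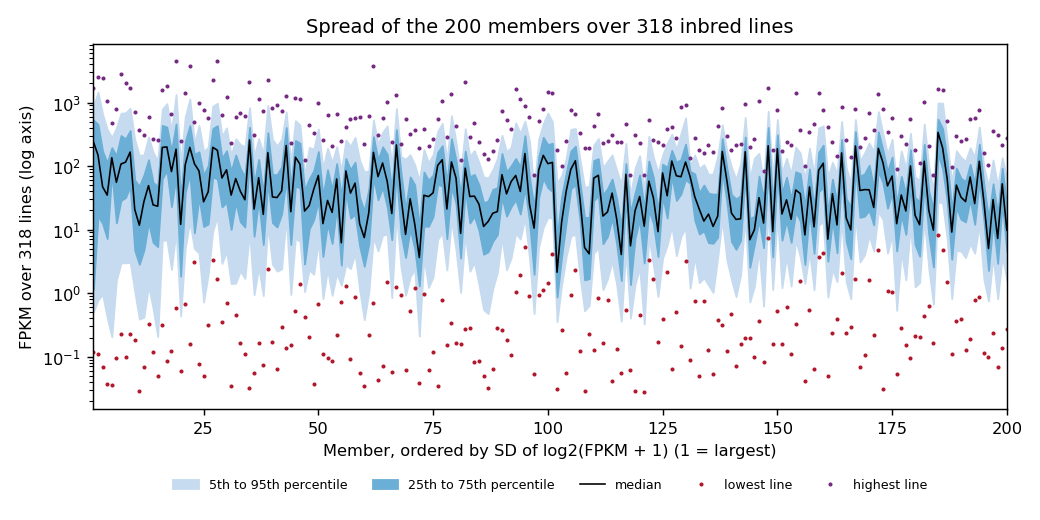
FPKM of the 200 members over 318 lines on a log axis, ordered by SD from left to right, with the median (line), the 25th to 75th and 5th to 95th percentiles (bands) and the lowest and highest line (points). Medians lie between 2.13 and 338 FPKM along the whole order, and the lowest line of 167 members is under 1 FPKM.

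GRMZM2G052100 had the largest SD (3.67). Its FPKM ranged from 0.118 in the line K10 to 1675 in ZHONG69, with a median of 240. GRMZM2G106413 followed (SD 3.08), from 0.109 in CIMBL75 to 2509 in GEMS31 with a median of 148. These 2 stood apart from the rest of the order, where GRMZM2G354909 (2.51) and GRMZM2G430807 (2.5) came next. GRMZM2G109448, GRMZM2G057672, GRMZM2G147399, GRMZM2G164090, GRMZM2G099454 and GRMZM2G091201 completed the 10 most variable, with SDs between 2.33 and 2.21. None of these 10 carries a gene name in the RefSeq table. Over all members, 155 of 200 matched a RefSeq gene (77.5%, against 73.5% of the other eligible genes), and 29 carried a name given for a gene or protein.

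Low values were unevenly spread over lines. A line had a median of 4 members under 1 FPKM, but GY386 had 57, GEMS55 had 48 and K10 had 45. GY386 alone held the lowest value of 18 members, and 91 lines shared the lowest values of all 200. At the other end, GEMS25 held the highest value of 13 members, the line 268 of 11 and ZHENG653 of 10. GY386 was deeply sequenced (25322060 counts) and its likeness, computed without the members, was 0.557. Across the 318 lines, the number of members under 1 FPKM correlated with this likeness (Pearson's r = -0.51, Spearman's rho = -0.42, r = -0.51 without the 2 farthest lines) and hardly with the total count (r = 0.11). These points share one normalization and one reference genome, and the part of a line's likeness in its low values was not tested.

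The shape of the distributions is described next, because the same SD can come from a broad spread or from 2 separated levels. On the log2 scale the members leaned to low values: the skewness had a median of -0.42, against -0.10 for the other eligible genes, and was under -1 in 21 members (10.5%, against 6.96%) and over 1 in 1. The most negative were GRMZM2G035620 (-2.32), GRMZM2G438202 (-2.18) and GRMZM2G109448 (-1.88). The most positive were AC208897.3_FG004 (1.18), GRMZM2G323013 (0.82) and GRMZM2G092474 (0.77), so that a long upper tail on this scale was rare. AC208897.3_FG004 had the lowest median of all members, 2.13 FPKM, and reached 179 FPKM in DAN599.

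Such 2-level distributions were sought by fitting 1 and 2 normal components to each gene. A gene was called 2-level where the Bayesian information criterion (BIC) preferred 2 components, their means lay over 2 pooled SDs apart (Ashman's D) and the smaller held at least 5% of lines. By this rule 83 members (41.5%) were 2-level, against 10.0% of all eligible genes that could be fitted. The share fell along the order of SD, to 35.5% of the genes ranked 201 to 400 and 5.5% of those from 5001 on, so that it runs with the spread that chose the members. It also depends on the definition: 34 members kept 2 levels when the means had to lie over 3 pooled SDs apart, and 47 were 2-level with a pseudocount of 0.1 in place of 1, of which 46 were among the 83. In 66 of the 83 the low level held the smaller share of lines.

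The clearest of them had a gap that was nearly empty of lines. In GRMZM2G052100, 32.1% of lines lay between 0.118 and 5.26 FPKM (median 0.793, or 10.5 reads) and 216 lines between 16.5 and 1675 FPKM (median 407). In GRMZM2G109448, 42 lines lay between 0.0353 and 7.81 FPKM and 276 between 28.7 and 482 FPKM. In GRMZM2G134711, 33.6% of lines lay between 3.13 and 24.1 FPKM and 211 between 43.5 and 500 FPKM. In this gene the low level was well above the counting limit, with 44 to 303 reads, whereas in GRMZM2G109448 the low lines had a median of 7 reads. GRMZM2G035620 had the largest gain in BIC (573): 280 lines lay in a narrow range of 28.3 to 132.2 FPKM, and 38 lines were spread from 0.0873 to 16.9 FPKM. GRMZM2G033555 followed these 4 by gain in BIC (223), but its levels ran into each other, with 41 lines within 0.5 log2 units of the boundary. All 5 stayed 2-level with a pseudocount of 0.1, over the lines of the study's mapping table and without the lines of low likeness. With the stricter distance of 3 pooled SDs GRMZM2G033555 was not 2-level (D = 2.46).

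**Figure D2:**
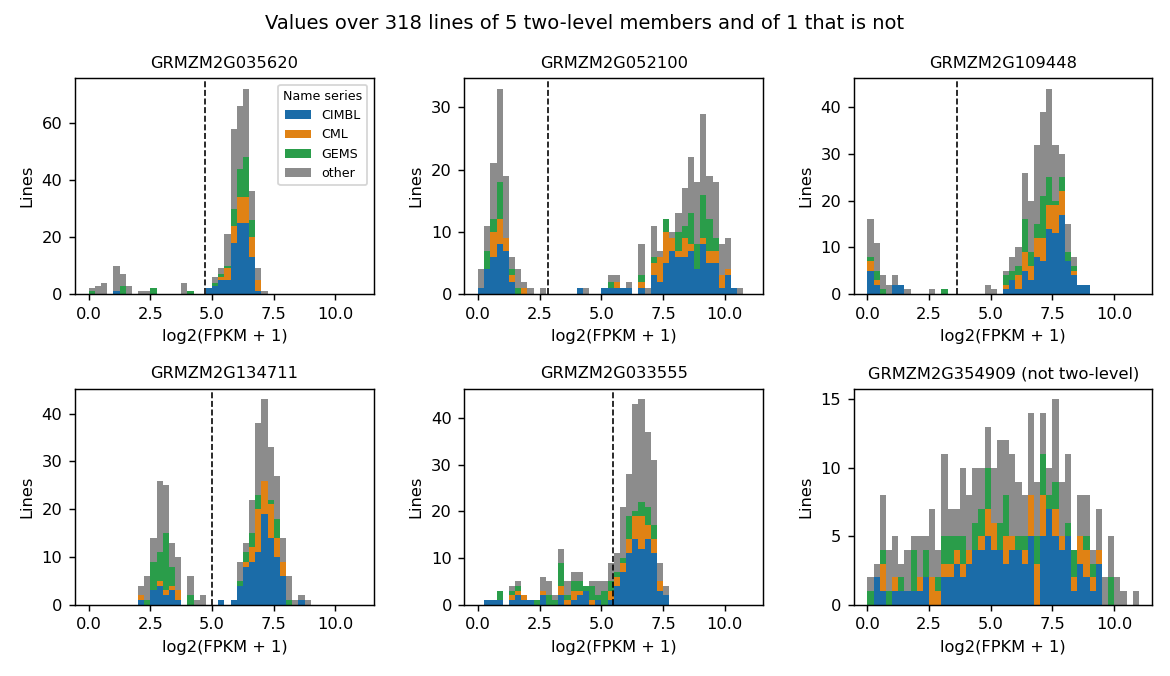
Number of lines (y axis) by log2(FPKM + 1) (x axis) for the 5 members with the largest gain in BIC and for GRMZM2G354909, the most variable member that was not 2-level, with lines coloured by name series and the boundary between levels dashed. GRMZM2G052100 has 216 of 318 lines above its boundary, and GRMZM2G354909 has no gap.

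Being low in one of these genes went little with being low in another. GRMZM2G052100 and GRMZM2G134711, both low in about the same number of lines, shared 29 low lines, which is 28.4% of the low lines of GRMZM2G052100 and 27.1% of those of GRMZM2G134711, beside 33.6% of all lines low in GRMZM2G134711 and 32.1% low in GRMZM2G052100. In most other pairs the shared part lay above that of all lines. GRMZM2G109448 and GRMZM2G033555 shared 17 low lines, 40.5% of those of GRMZM2G109448, beside 28.3% of all lines. GRMZM2G035620 and GRMZM2G134711 also shared 17, 44.7% of those of GRMZM2G035620, beside 33.6%. The correlation between any 2 of the 5 lay between -0.10 and 0.09 (n = 318 lines). None of the 5 was in a co-variation cluster or had an r over 0.5 with any other member. Library depth was alike on either side: for GRMZM2G052100 the median total was 13348800 in low lines and 13891800 in high lines, and the median likeness was 0.829 and 0.842.

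The levels were unequally shared among the name series in some of them. GRMZM2G134711 was low in 31 of 46 GEMS lines (67.4%, exact 95% interval 52 to 80.5), in 14 of 98 CIMBL lines (14.3%, 8.04 to 22.8), in 6 of 40 CML lines (15%, 5.71 to 29.8) and in 56 other lines (41.8%, 33.3 to 50.6). GRMZM2G033555 was likewise low in 28 GEMS lines (60.9%, 45.4 to 74.9), against 29 other lines (21.6%, 15 to 29.6). GRMZM2G035620 was low in 1 CIMBL line, no CML line and 7 GEMS lines, against 30 other lines. In GRMZM2G052100 the shares were close, at 28.6% of CIMBL, 30% of CML, 28.3% of GEMS and 36.6% of other lines. The intervals are exact binomial ones, take lines as independent and cover counting error only.

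Co-variation was described by clustering the members on their correlation across lines (average linkage on 1 - r, up to a height of 0.5). The members varied together more than eligible genes in general. Of 19900 pairs of members, 16.5% had an r over 0.5, against 7.76% of pairs among the genes ranked 201 to 400 by SD and 1.41% of pairs among all other eligible genes. The median r was 0.15, -0.18 at the 5th percentile and 0.69 at the 95th, so that strong negative relations were rare. They fell into 4 clusters of at least 5, here called A (80 members), B (15), C (9) and D (8), and 88 members fell into none. The size of cluster A depended on the setting: the 2 largest clusters held 53 and 38 members on deviations from the mean of the series (50 of the 53 from A), 52 and 40 over the lines of the study's mapping table (48 of the 52 from A), and 36 and 27 at a height of 0.4, whereas the largest cluster held 82 with Spearman's rho and 88 without the lines of low likeness. Lines share relatedness, field and the scaling of FPKM, so these correlations are descriptions over 318 lines and carry no p-value.

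Cluster A held 80 members with a median r of 0.61 within it, and included 2 of the 3 heat shock members, 5 of the 8 hormone members and none of the 4 defence members described below. Its centre was GRMZM2G129189 (r = 0.93 with the mean of the rest), ERF1 (GRMZM2G053503, a factor of the ethylene response family, r = 0.91) and GRMZM2G396248 (r = 0.90). ERF1 ranged from 4.22 FPKM in GEMS55 to 759 in ZHENG653, with a median of 110.9. GRMZM2G129189 ranged from 7.33 FPKM in GY386 to 1682, with a median of 209. The mean level of the cluster, as a geometric mean, ran from 2.45 FPKM in GY386 to 211 in the highest line, and differed 25.1-fold between the 5th and 95th percentile of lines. Lines of all series covered nearly this whole range, with medians of 46.1 FPKM in CIMBL, 49.5 in CML and 34.6 in GEMS lines, against 36.8 in other lines. Series accounted for 1.18% of its variance. The median r within the cluster was 0.56 in CIMBL, 0.59 in CML, 0.63 in GEMS and 0.66 in other lines, and 0.60 without the 2 lines farthest from the median (GY386 and GEMS55).

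Cluster B held 15 members around GRMZM2G355572, GRMZM2G177050 and AC206951.3_FG017 (r = 0.95, 0.90 and 0.88 with the mean of the rest). It included EREB56 (GRMZM2G380377), of the AP2/EREBP family of transcription factors. GRMZM2G355572 ranged from 1.64 FPKM in GY462 to 793 in CIMBL2, with a median of 207. The values leaned to the low end, with a median skewness of -1.03 over the members of the cluster. Its mean level lay at a median of 49.3 FPKM in CIMBL, 45.1 in CML and 83.7 in GEMS lines, against 60.6 in other lines, and these ranges overlapped almost wholly. Clusters A and B were only weakly related to each other (r = -0.18 between their means).

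Cluster C held 9 members around GRMZM2G057506 (r = 0.87), TIFY9 (GRMZM2G145412, also ZIM18, r = 0.79) and GRMZM2G097182 (r = 0.78), and TIFY20 (GRMZM2G173596, also ZIM10). TIFY proteins include the JAZ repressors of jasmonate signalling known from Arabidopsis. TIFY9 ranged from 0.528 FPKM in GEMS31 to 777 in EN25, with a median of 188, and TIFY20 from 0.127 in K10 to 424 in CML486, with a median of 64.6. The mean of cluster C followed that of A (r = 0.70) and, less, that of B (r = 0.49). None of its members was 2-level.

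Cluster D held 8 members around GRMZM2G164090 (r = 0.82), GRMZM2G456217 (r = 0.79) and GRMZM2G075290 (r = 0.77), none of which carries a gene name in RefSeq. GRMZM2G164090 ranged from 0.0995 FPKM in CIMBL120 to 2054 in GEMS25, with a median of 115.3. The mean of the cluster covered the widest range of the 4, from 1.15 FPKM in CIMBL120 to 726 in CML114, and was only weakly related to A (r = 0.14), B (r = 0.28) and C (r = 0.28).

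**Figure D3:**
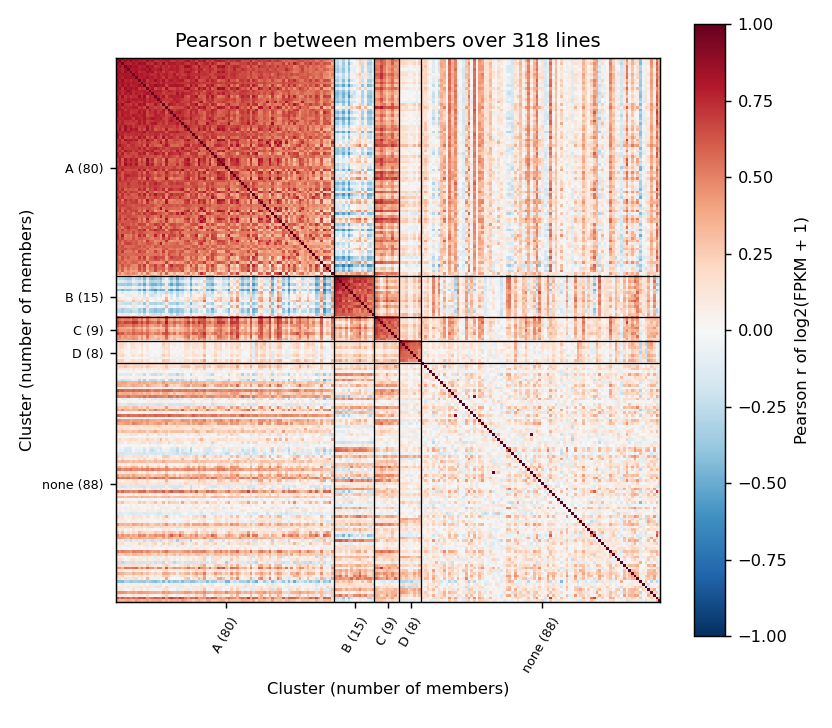
Pearson r of log2(FPKM + 1) over 318 lines for every pair of the 200 members, ordered by cluster on both axes (clusters A to D, then the 88 members in none), from blue (-1) to red (1). The block of 80 members of cluster A is mostly red (median r 0.61, lowest -0.04), it is faintly blue against cluster B, and most of the 88 are pale against each other.

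The clusters were part of wider patterns in the kernels. The mean of cluster A had an r over 0.5 with 1206 of the 16855 other eligible genes (7.16%) and under -0.5 with 619. For B, C and D the numbers over 0.5 were 965, 851 and 191. When the first principal component of the other eligible genes was removed from the values, 89 members were left in clusters, and when the first 10 were removed none was. The total count of a line was unrelated to the cluster means (r between -0.10 and 0.00), whereas the likeness correlated with B (r = 0.57), D (0.53) and C (0.43), and not with A (0.06). For clusters A and B the 17 marker genes did not move as lists. For cluster A, bt2, of starch synthesis, had an r of -0.54, whereas sh2, bt1 and o2 of the same list lay at -0.02, 0.10 and 0.11. For cluster B, mrp1, a transfer cell regulator, had an r of -0.55, but mn1, the cell wall invertase of the basal endosperm, 0.48. For cluster D, mn1 lay at 0.47 and mrp1 at -0.20. The other transfer layer genes, betl1, betl2, betl10 and meg1, lay between 0.16 and 0.27 with D. The esr1 and esr3 genes of the embryo surrounding region lay between 0.25 and 0.41. The betl, meg1 and esr genes were each at 0 in 154 to 311 lines. The part of stage and of tissue proportions in the clusters was not tested.

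**Figure D4:**
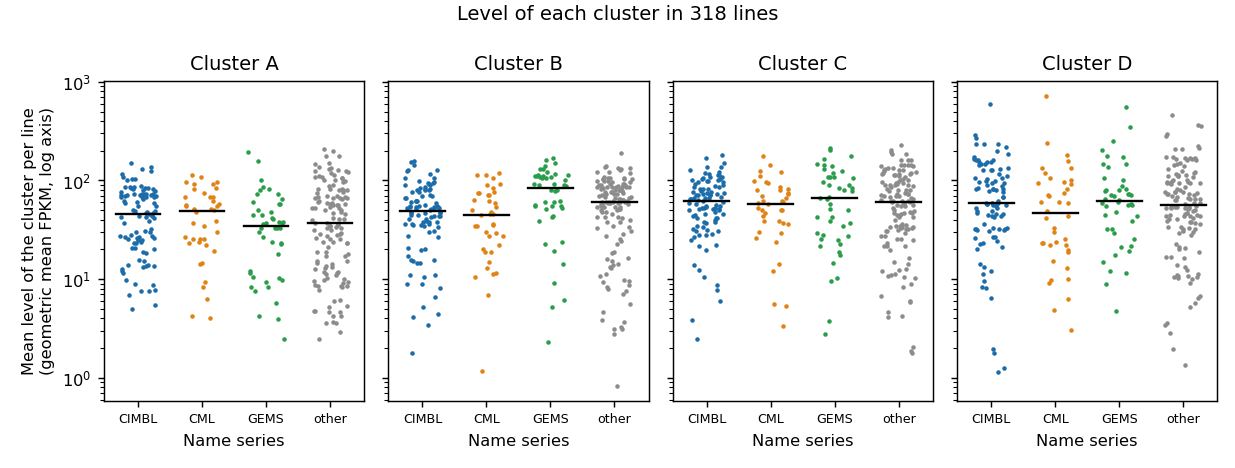
Mean level of each cluster in each of the 318 lines (geometric mean FPKM, log axis) by name series, with a bar at the median of the series. In cluster A the lines run from 2.45 to 211 FPKM and the 4 series overlap over nearly the whole range.

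The most similar pair of members was GRMZM2G085460 and GRMZM2G420823 (r = 0.97, rho = 0.97), which RefSeq holds as a single gene, LOC100283406, so that they are 2 gene models of 1 locus and should be read as 1 member. GRMZM2G177050 and GRMZM2G355572 of cluster B followed (r = 0.91), and lie on different chromosomes. The next pair was opr1 (GRMZM2G106303) and opr2 (GRMZM2G000236), 12-oxophytodienoate reductase genes that stand 2 places apart in the RefSeq order (r = 0.90, and between 0.84 and 0.92 within each series). Whether reads of one copy were placed on the other in some lines was not tested. GRMZM5G822947 with GRMZM2G038677 and AC197705.4_FG001 with ERF1 completed the 5 highest (r = 0.89 each). The lowest r was -0.74, between AC208897.3_FG004 and GRMZM2G381404 of cluster B (rho = -0.61). GRMZM2G138396 with AC208897.3_FG004 (-0.69, rho = -0.58) and GRMZM2G154747 with GRMZM2G381404 (-0.67) were the next lowest.

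Several members carry names from stress and hormone pathways. Jasmonates are oxylipin hormones made from plastid fatty acids through lipoxygenase, allene oxide synthase and 12-oxophytodienoate reductase, and they act with ethylene in responses to wounding and pathogens. Heat shock proteins are chaperones induced by unfolded proteins, and chitinases degrade fungal cell walls. Among these roles the list of jasmonate names had the most members by count. Its share of members (20%) was below that of heat shock (37.5%) and defence names (23.5%). Of 25 eligible genes named for the pathway, 5 were members and 18 lay in the upper 10% of SD. Of all eligible genes, 1.17% were members. opr1 ranged from 0.152 FPKM in BZN to 229 in YU374 (median 19.1) and opr2 from 0.0365 in the same line BZN to 335 in CML165 (median 43.2). The lipoxygenase gene lox1 (GRMZM2G156861), from an early step of oxylipin synthesis, was never low, from 3.69 FPKM and 461 reads in CIMBL27 to 1432 FPKM in CIMBL81 (median 86). Of the 5, opr1, opr2 and lox1 belong to cluster A, so that a high r with its mean follows from the clustering. TIFY9 and TIFY20, of cluster C, had an r of 0.58 and 0.52 with the mean of cluster A. Of the 20 outside the members, 3 had an r over 0.5 with it. Among these 20, the allene oxide synthase gene aos1 had an r of 0.84 although its SD ranked 1373, and opr7 and opr8, the copies tied to jasmonate synthesis in maize, reached 0.47 and 0.41.

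Of 26 eligible names in the ethylene list 4 were members: ERF1, EREB179 (GRMZM2G129674), EREB56 (also DBP4) and ACO31 (GRMZM2G072529). ACO31 is an ACC oxidase of the last step of ethylene synthesis. The EREB names give the AP2/EREBP family only, and a part of these genes in the ethylene pathway was not tested. EREB179 had the largest SD of the named transcription factors (1.88), from 0.162 FPKM in CIMBL105 to 678 in TY-HZ4 (median 40.3), and ACO31 ranged from 0.0489 to 157 FPKM (median 11.2). EREB56, of cluster B, was weakly and negatively related to the mean of cluster A (r = -0.31). In all, 8 of 154 eligible names of transcription factors were members, among them WRKY53 (GRMZM2G125653, 0.870 to 755 FPKM, median 119.03), NAC20 (GRMZM2G180328, 0.160 to 223 FPKM, median 14.8) and MYBR95 (GRMZM2G115070, 0.123 to 332 FPKM, median 30.7).

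Heat shock genes were few but nearly all highly variable. Of 8 eligible names, 3 were members and 7 lay in the upper 10% of SD. The small heat shock protein genes hsp18c (GRMZM2G034157) and hsp22 (GRMZM2G007729) belonged to cluster A and both peaked in GEMS25, at 900 and 1141 FPKM, with medians of 32 and 107.1. The remaining member of the list, hsbp1 (GRMZM2G085924), named for a protein that binds heat shock factors (a name that emp2 also carries as a synonym), was only weakly related to cluster A (r = -0.21). Outside the members, the 2 Hsp70 genes, hsp18f and hsp101 all ranked 378 or higher by SD. Their r with the mean of cluster A lay between 0.59 and 0.69. The remaining eligible gene of the list, emp2 (GRMZM2G039155), ranked 12097 by SD. Its r with the mean of cluster A was -0.15.

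Of 17 eligible defence names, 4 were members. The chitinase gene chn1 (GRMZM2G453805) ranged from 0.788 FPKM in CML139 to 581 in the line 268 (median 25.7), chiB (GRMZM2G005633), also a chitinase, from 0.149 to 844 (median 67.9), pr5 (GRMZM2G402631), a pathogenesis-related gene, from 0.364 to 1043 (median 31.8), and piip2 (GRMZM2G300135) from 1.11 to 797 (median 147). None of the 4 was in cluster A, although chn1 had an r of 0.66 with its mean. Also among the members were gst2 (GRMZM2G132093), a glutathione S-transferase of cluster A, the proline-rich cell wall protein gene prcw1 (GRMZM2G049915), D14a (GRMZM2G077127), named for the strigolactone receptor known from rice, and psk1 (GRMZM2G044194), of the phytosulfokine peptides. No gene of the lists of photosynthesis (5 eligible), circadian clock (3), storage and transfer layer (2), flavonoids (10), sugar and starch (9) or histones and ribosome (29) was a member. Of all eligible genes 1.17% were members, so that the lack of a member in lists this small says little. Names cover a small part of the annotation, and a gene without a name is in no list.

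Finally, the members were compared between name series, to ask how far their spread follows the origin that a line's name records. All 200 passed the filter on low counts. By edgeR's quasi-likelihood F-test over the 4 series, 49 members (24.5%) differed at an adjusted p under 0.05, against 31.2% of the 26440 genes tested and 29.4% of the other eligible genes. The members' share lay below this background. A median of 1.99% of a member's variance lay between series, against 1.96% for the other eligible genes. That variance is itself a part of the SD that chose the members. Their differences were larger and less precise: between CIMBL and other lines the median size was 0.25 on the log2 scale with a median standard error (SE) of 0.21, against 0.10 and 0.07 for the other eligible genes.

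In CIMBL lines 12 members were higher (6%, against 10.8% of genes tested) and 20 lower (10%, against 13.5%) than in other lines. In CML lines 5 were higher (2.5%, against 5.62%) and 13 lower (6.5%, against 7.30%), and in GEMS lines 7 were higher (3.5%, against 2.06%) and 6 lower (3%, against 2.18%). The 3 comparisons share the other lines. The balance of the CIMBL calls depended on the test: with limma on log2(FPKM + 1), 25 members were higher and 16 lower. That test kept 20 of the 32 calls, and none of the 32 had the opposite sign. Without the 12 lines of a likeness under 0.6, 4 members were higher and 3 lower in GEMS lines.

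GRMZM2G003409 was higher in all 3 series. Its FPKM ran from 1.29 to 160 in CIMBL lines (median 22.7), from 0.956 to 178.4 in CML lines (median 26.6) and from 0.582 to 132.1 in GEMS lines (median 31.2), against 0.468 to 160 in other lines (median 8.88). The ranges overlapped, and the log2 fold changes were 0.98 ± 0.20 (SE; edgeR, adjusted p = 5.38e-05), 0.97 ± 0.26 (0.00537) and 1.17 ± 0.25 (0.000687). GRMZM2G066428 had a median of 36.8 FPKM in CIMBL lines (0.220 to 307) against 15.5 in other lines (0.0676 to 168). In CIMBL lines GRMZM2G066428 (log2 fold change 0.82 ± 0.27, edgeR adjusted p = 0.0146) and GRMZM2G079281 (0.78 ± 0.21, 0.00214) were the next highest. The lipoxygenase gene lox1, placed in the jasmonate list by its name alone, was higher as well (0.55, edgeR adjusted p = 0.0272).

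The members with the largest decrease in CIMBL lines included the second most variable of all. GRMZM2G106413 had a median of 87.5 FPKM in CIMBL (0.109 to 1673) and 74.8 in CML lines (0.296 to 1469), against 221 in other lines (0.403 to 2318). It was lower in CIMBL (log2 fold change -1.38 ± 0.33, edgeR adjusted p = 0.000628) and CML lines (-1.47 ± 0.47, 0.0251). The call in CML lines was lost with limma (0.0668, with a range of 0.00305 to 0.0668 over 6 alternatives). GRMZM2G430807 had a median of 26.2 FPKM in CIMBL lines (0.104 to 406) against 41.1 in other lines (0.0377 to 1070), with overlapping ranges. It was lower in CIMBL lines (-1.31 ± 0.31, edgeR adjusted p = 0.000513), a call that was lost with limma (0.13, with a range of 2.54e-05 to 0.13 over 6 alternatives). hsbp1 was lower in CIMBL lines, with a median of 8.63 FPKM (0.232 to 102.5) against 21.8 in other lines (0.540 to 257), a log2 fold change of -1.25 ± 0.21 (edgeR, adjusted p = 6.67e-07). It was also lower in GEMS lines (-0.91 ± 0.28, edgeR adjusted p = 0.0352), a call that was lost with limma (0.196, with a range of 0.0113 to 0.196 over 6 alternatives), and no other of the 8 heat shock genes was called in any of the 3 comparisons.

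In CML lines the 2 gene models of LOC100283406 stood highest. GRMZM2G085460 had a median of 70.5 FPKM in CML lines (6.21 to 176) against 19.6 in other lines (1.07 to 169), a log2 fold change of 1.09 ± 0.27 (edgeR, adjusted p = 0.00196). GRMZM2G420823 gave 0.95 ± 0.28 (0.0126), which was lost over the lines of the study's mapping table alone (0.0583, with a range of 0.000316 to 0.0583 over 6 alternatives). Both models had values in CML lines that lay within the range of other lines or just above it. GRMZM2G404608 had a median of 18.8 FPKM in CML lines (0.0958 to 185) against 44 in other lines (0.560 to 638), and GRMZM5G860761 had a median of 7.03 FPKM in CML lines (1.20 to 77.8) against 16.8 in other lines (2.35 to 369). Besides GRMZM2G106413, GRMZM2G404608 (log2 fold change -1.40 ± 0.33, edgeR adjusted p = 0.00104) and GRMZM5G860761 (-1.39 ± 0.34, 0.00191) were the lowest.

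GRMZM2G049675 had a median of 27.1 FPKM in GEMS lines (0.133 to 80.9) against 11.2 in other lines (0.0529 to 84.3), and GRMZM2G323013 had a median of 13.8 FPKM in GEMS lines (0.863 to 198) against 9.49 in other lines (0.467 to 201.5). In GEMS lines GRMZM2G323013 (log2 fold change 1.05 ± 0.29, edgeR adjusted p = 0.0182) and GRMZM2G049675 (1.04 ± 0.25, 0.00369) were higher next to GRMZM2G003409. GRMZM2G134711 had a median of 8.08 FPKM in GEMS lines (4.17 to 274) against 102.4 in other lines (3.13 to 500), where the GEMS median falls in the low level of this gene and that of other lines in the high level. For sip1 the medians were close, at 4.28 FPKM in GEMS lines (0.426 to 66.5) and 6.28 in other lines (0.0490 to 412), and for chn1 they were 20.2 FPKM in GEMS lines (0.994 to 121.9) and 31.8 in other lines (1.21 to 581). The largest decreases were in sip1 (GRMZM2G374971, -1.18 ± 0.33, 0.0192), chn1 (-1.03 ± 0.27, 0.0112) and the 2-level gene GRMZM2G134711 (-0.95 ± 0.29, 0.0404). The calls of sip1 and chn1 were lost with limma (0.313 and 0.237), and sip1 (0.0782) and GRMZM2G134711 (0.0567) were lost without the 12 lines of low likeness. Over the 6 alternatives the adjusted p ranged from 0.00272 to 0.313 for sip1, from 0.00193 to 0.237 for chn1 and from 0.00931 to 0.0567 for GRMZM2G134711. GRMZM2G336875 differed in opposite directions. Its median was 12.7 FPKM in CIMBL (1.13 to 137.5), 11.2 in CML (1.02 to 92.2) and 54.6 in GEMS lines (1.61 to 161), against 14.5 in other lines (0.747 to 137.5). It was lower in CIMBL (-0.72 ± 0.20, edgeR adjusted p = 0.0047) and CML lines (-1.31 ± 0.30, 0.000754) and higher in GEMS lines (0.82 ± 0.25, 0.0308). The call in CIMBL lines was lost with limma (0.101) and the call in GEMS lines without the lines of low likeness (0.0535), so that opposite directions rest on calls that do not hold under every alternative. Over the 6 alternatives the adjusted p ranged from 0.00115 to 0.101 in CIMBL, from 1.84e-05 to 0.00755 in CML and from 0.0106 to 0.0535 in GEMS lines. This gene was singled out after its values were seen.

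**Figure D5:**
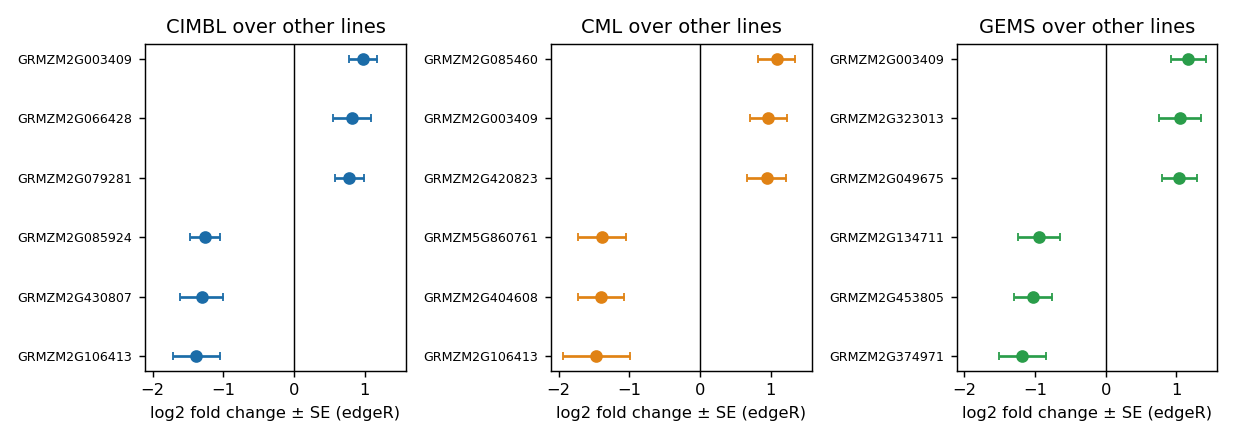
Log2 fold change (x axis, edgeR, points with SE bars) of the 3 members with the largest increase and the 3 with the largest decrease in CIMBL, CML and GEMS lines, each over other lines, among members with an adjusted p under 0.05. GRMZM2G003409 appears on the right in all 3 panels, from 0.97 to 1.17.

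The clusters took different shares in these calls. In cluster A 10 of 80 members (12.5%) differed among the series, in B 5 of 15 (33.3%), in C 1 of 9 (11.1%) and in D 1 of 8 (12.5%). Among the 88 members outside clusters 32 did (36.4%). Beside these stand 24.5% of all members and 31.2% of all genes tested. The 2-level members made up 33.8% of cluster A, 26.7% of B, none of C, 37.5% of D and 55.7% of the members outside clusters, beside 41.5% of all members. These shares describe the members and were not tested, since clusters, levels and calls come from the same values.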

How the data were processed

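Kernels of 318 inbred lines were compared by line-name series. Per the labels and the study's methods, the authors mapped 125-bp paired reads to one maize line's genome (B73 RefGen_v3) with TopHat2, kept unique alignments, and deposited counts per gene without normalization, counted without strand. FPKM, also deposited by the authors, follow from the counts, size factors of DESeq2 and exon lengths, as recomputation from the tables showed. Tool versions are not given in the sources used here. Lines whose alleles differ from B73, near-identical copies and overlapping or antisense genes can therefore be undercounted or merged.

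The choice of members and the lists of gene names were made with earlier results of these data known. Members were selected on log2(FPKM + 1). Distributions with 2 levels were fitted with mclust 6.1.1. Clusters of at least 5 members were described. Series were compared on counts with edgeR 4.0.16 (filterByExpr, TMM, robust quasi-likelihood F-test, Benjamini-Hochberg over 26440 genes). The fit was tested on simulated data. A p-value sets a difference between series against the spread between lines of a series, which may be related. Depth limits values under about 10 reads. Alternatives were DESeq2 1.42.0, limma 3.58.1, other size factors, no filter, other pseudocounts and thresholds, and the 282 lines of the study's mapping table.

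Named members are the 10 of largest SD, the 5 of largest gain in BIC, the 3 of highest and of lowest skewness, the 3 nearest each cluster's mean, the 3 largest changes each way per series, the 3 on either side of the threshold, the pairs of extreme r (5 highest, 3 lowest) and members with a gene name. Lines named are those at the ends of these values. The RefSeq table used for names is of another assembly (Zm-B73-REFERENCE-NAM-5.0), gives no gene descriptions and matched 18539 identifiers, so lists of function rest on gene names alone and no coordinates are given. The jasmonate, ethylene and pathogenesis-related lists were added later. R 4.3.3 and Python 3.11.15 were used.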

Additional observations from a re-analysis of the deposited data

How the results depend on the processing

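Of 64 counts recomputed under an alternative, 54 stayed within 1.5 times the reported count. With limma on log2(FPKM + 1), 25 members were higher in CIMBL and 10 in CML lines (reported: 12 and 5). Over the 282 lines of the study's mapping table, 2 were higher in CML and 10 lower in GEMS lines (reported: 5 and 6). Without the lines of a likeness under 0.6, chosen after seeing the data, 4 were higher and 3 lower in GEMS lines (reported: 7 and 6). Distributions with 2 levels were found in 47 members with a pseudocount of 0.1 and in 34 with Ashman's D over 3 (reported: 83), and in 25 under every setting. With the first 10 principal components removed, 0 members were in clusters (reported: all but 88). That setting takes out variation that the other eligible genes share. The largest cluster, reported with 80 members, held 53 on deviations from the mean of the series, 52 over the lines of the mapping table, 36 at a height of 0.4 and 38 with the first component removed. Requiring 10 counts in every line kept 59 of the 200 members, since fewer genes were then eligible. Other choices of the 200 kept 141 (interquartile range) to 200, and 23 were kept under every one. The cause of the other shifts was not tested. Of the fold changes of named members recomputed, 7 kept their direction but not their side of the threshold, none reversed, and the rest kept both. The first principal component removed was also chosen after seeing the data. No paired analysis was possible because the labels give no replicate numbers.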

Other observations

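In the RefSeq gene order, 14 pairs of the members that could be placed lay within 10 genes of each other, one of them the 2 models of LOC100283406. How many such pairs other eligible genes form was not computed, so the number says nothing of the members' placement. Closeness did not go with a high correlation throughout: GRMZM2G106413 and GRMZM2G106393 are next to each other (r = 0.39), GRMZM2G076972 and GRMZM2G094510 lie 2 genes apart (r = 0.72), as do GRMZM2G104204 and GRMZM2G302604 (r = 0.66), and ACO31 and gst2 lie 3 genes apart (r = 0.56). GRMZM2G092474 and GRMZM2G069511, 6 genes apart, had an r of -0.19. No set of neighbours was tested.

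Other members with gene names belonged to none of the clusters. glu1 (GRMZM2G016890), the beta-glucosidase that releases benzoxazinoids from their glucosides, ranged from 0.0322 FPKM in CML433 to 2077 in GEMS29, with a median of 257. dxs2 (GRMZM2G493395), of the first step of plastid isoprenoid synthesis, ranged from 0.0866 to 210 FPKM (median 18.6) and was higher in CIMBL lines (log2 fold change 0.77, edgeR adjusted p = 0.00812). The aquaporin gene TIP4-4 (GRMZM2G093090) ranged from 0.0846 to 236 FPKM (median 25) and the asparagine synthetase gene asn3 (GRMZM2G053669) from 0.173 FPKM in CIMBL1 to 242 in the line 268 (median 9.28). The line 268 also held the highest values of chn1, gst2 and sip1.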
